A study of Mus musculus with 9 samples.

Results

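Orphan and adhesion G protein-coupled receptors were followed in RNA from laser-microdissected single capillaries and the cells around them, taken from the ossification front (OF) of mouse femurs. The members are the protein-coding genes with a GRCm38 symbol made of Gpr and a number, or beginning with Gprc or with Adgr and a letter from a to g, without Adgre1. The rule gave 98 of the 39179 gene identifiers in the count tables, of which 72 are numbered Gpr genes, 21 are adhesion receptors and 5 are Gprc genes. Another 2 matching symbols are not protein coding and were left out. The members were selected on their names, but the family was chosen by the difference of 1 member, Gpr153, between the ages in these same libraries. The values of Gpr153 are therefore given as a description with no test, and counts of members called between the ages support nothing about the family.

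The compared groups were juvenile mice at 4 weeks (n = 5) and adult mice at 12 weeks (n = 4), with 1 library per sample. Mice of both ages were a Tie2-GFP reporter line and carried the transgene Tg(TIE2GFP)287Sato/J, in which the Tie2 promoter drives GFP in endothelial cells, and the labels give their origin as C57BL/6 and name no treatment. GFP served to find the capillaries, while the cells next to them were cut out with them and were not sorted, and each sample pooled many cut pieces. Sexes were analysed together. In CPM, counts scaled to the size of the library, the Y-linked gene Ddx3y had 98.4 and 93.0 CPM in juvenile libraries 4 and 5 and at most 0.125 CPM in the other 7, so sex and age overlap in part.

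G protein-coupled receptors span the cell membrane and pass signals from outside to G proteins and arrestins within. Orphan receptors are those with no agreed ligand, and many numbered Gpr genes kept their number when a ligand was later proposed. Adhesion receptors carry a long extracellular part that binds matrix or neighbouring cells and is cut from the membrane part, which leaves a tethered peptide that can activate the receptor. Several genes with a Gpr number code for membrane proteins of the Golgi or lysosome that are not classical receptors. In bone, adhesion receptors are known from the skeleton and from vessels, and Gpr183 is known to guide osteoclast precursors along oxysterol gradients.

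The promoter windows of Gpr153, Gpr39, Gpr180 and Gpr146 are shown because the results below turn on these genes. Each is the 300-base window of RefSeq (GRCm38.p6) from 250 bases before to 50 bases after an annotated start, read 5′ to 3′ on the strand of the gene. Capitals mark matches on either strand to the GC box GGGCGG, the RUNX core TGTGGT, the CCAAT box CCAAT, the TATA box TATAAA and the E box CACGTG. Gpr153 is shown by the first of its 2 windows, chr4:152273862-152274161 (+), and Gpr39 by chr1:125676746-125677045 (+). Gpr180 is shown by chr14:118136877-118137176 (+), and Gpr146 by the second of its 3 windows, chr5:139380389-139380688 (+).
Gpr153: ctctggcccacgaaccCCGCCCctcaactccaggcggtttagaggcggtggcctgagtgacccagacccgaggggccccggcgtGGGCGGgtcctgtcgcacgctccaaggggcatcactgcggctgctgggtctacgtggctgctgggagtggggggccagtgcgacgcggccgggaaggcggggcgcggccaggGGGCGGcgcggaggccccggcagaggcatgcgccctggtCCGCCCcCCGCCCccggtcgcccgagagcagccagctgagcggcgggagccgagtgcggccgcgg
Gpr39: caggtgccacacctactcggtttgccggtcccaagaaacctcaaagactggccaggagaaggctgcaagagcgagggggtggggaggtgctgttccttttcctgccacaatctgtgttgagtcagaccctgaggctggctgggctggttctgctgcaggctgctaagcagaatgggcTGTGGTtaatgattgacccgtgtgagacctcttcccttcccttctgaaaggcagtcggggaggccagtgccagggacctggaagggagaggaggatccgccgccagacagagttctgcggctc
Gpr180: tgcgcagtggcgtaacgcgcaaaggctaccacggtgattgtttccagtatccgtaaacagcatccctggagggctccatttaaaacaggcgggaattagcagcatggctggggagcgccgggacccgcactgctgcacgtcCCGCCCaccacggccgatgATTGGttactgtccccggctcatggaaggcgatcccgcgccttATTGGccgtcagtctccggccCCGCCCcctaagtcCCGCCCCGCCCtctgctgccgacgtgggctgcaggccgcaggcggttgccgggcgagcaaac
Gpr146: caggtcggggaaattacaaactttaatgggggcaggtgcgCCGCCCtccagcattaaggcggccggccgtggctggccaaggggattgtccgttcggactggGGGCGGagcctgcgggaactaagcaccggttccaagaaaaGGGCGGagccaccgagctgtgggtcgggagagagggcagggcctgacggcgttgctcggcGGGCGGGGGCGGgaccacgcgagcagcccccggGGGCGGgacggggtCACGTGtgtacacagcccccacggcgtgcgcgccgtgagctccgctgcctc

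The Gpr153 window held 5 GC boxes and 35 CpG, with a GC content of 77.3%. The Gpr180 window held 4 GC boxes, the last 2 of which share bases, together with 2 CCAAT boxes and 29 CpG. The window of Gpr39 had no GC box and 8 CpG, and it held a RUNX core 73 bases before the start. Windows were matched for 69 of the 98 members, and some members have several. A GC box was found in 42.5% of the 87 member windows against 35.7% of the 32851 windows of all genes, and a RUNX core in 24.1% against 16.8%. The CCAAT box stood in 39.1% against 37.4%, the TATA box in 9.20% against 13.6% and the E box in 2.30% against 7.15%. Counting each gene by its window with the most CpG, members tested between the ages had a median of 20 CpG (n = 23 members), those with counts too few to test had 5 (n = 27) and those with no count had 8 (n = 19), beside a median of 8 over all 27025 genes with a window. These matches describe letters and not bound sites.

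Library totals ranged from 4856833 to 8077362 counts, so that 3 counts, taken as the floor, stand for 0.347 to 0.638 CPM. CPM here uses the library size after TMM scaling, and the floor covers counting error only. The endothelial markers summed to 597 to 960 CPM in juvenile libraries and 705 to 902 CPM in adult libraries, and 0 of the 10 were called between the ages by edgeR, DESeq2 or limma voom, with 0 at an unadjusted p under 0.05. Osteoblast markers summed to 171500 to 213000 CPM in juvenile and 62400 to 93220 CPM in adult libraries, far above the endothelial sum in every library. These sums are over different genes and are not scaled for length, so they give no share of either cell type. Erythroid markers summed to 313 to 2026 CPM in juvenile and 3379 to 30640 CPM in adult libraries, and neutrophil markers to 5.80 to 64.0 and 91.4 to 4402 CPM. The macrophage markers Cd5l and Vsig4 and the osteocyte marker Fgf23 had no count in any library. In bulk samples of this kind, fewer cells of a type and less RNA per cell cannot be told apart.

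Of the 98 members, 72 had at least 1 count, 31 were tested after the filter on low counts, 41 had counts too few to test and 26 had none. At 3 counts or more, a juvenile library held 39 to 43 members and an adult library 35 to 43. A core of 22 members reached 3 counts in all 9 libraries. The members summed to 1572 to 1653 CPM in the juvenile libraries and to 1223 to 1819 CPM in the adult libraries, a wider range. The coefficient of variation over libraries had a median of 29.1% in juvenile and 53.3% in adult mice, and it was lower in juvenile mice for 27 of the 30 tested members with a value in both ages. These 2 medians are a description of the libraries, with no test.

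**Figure D1:**
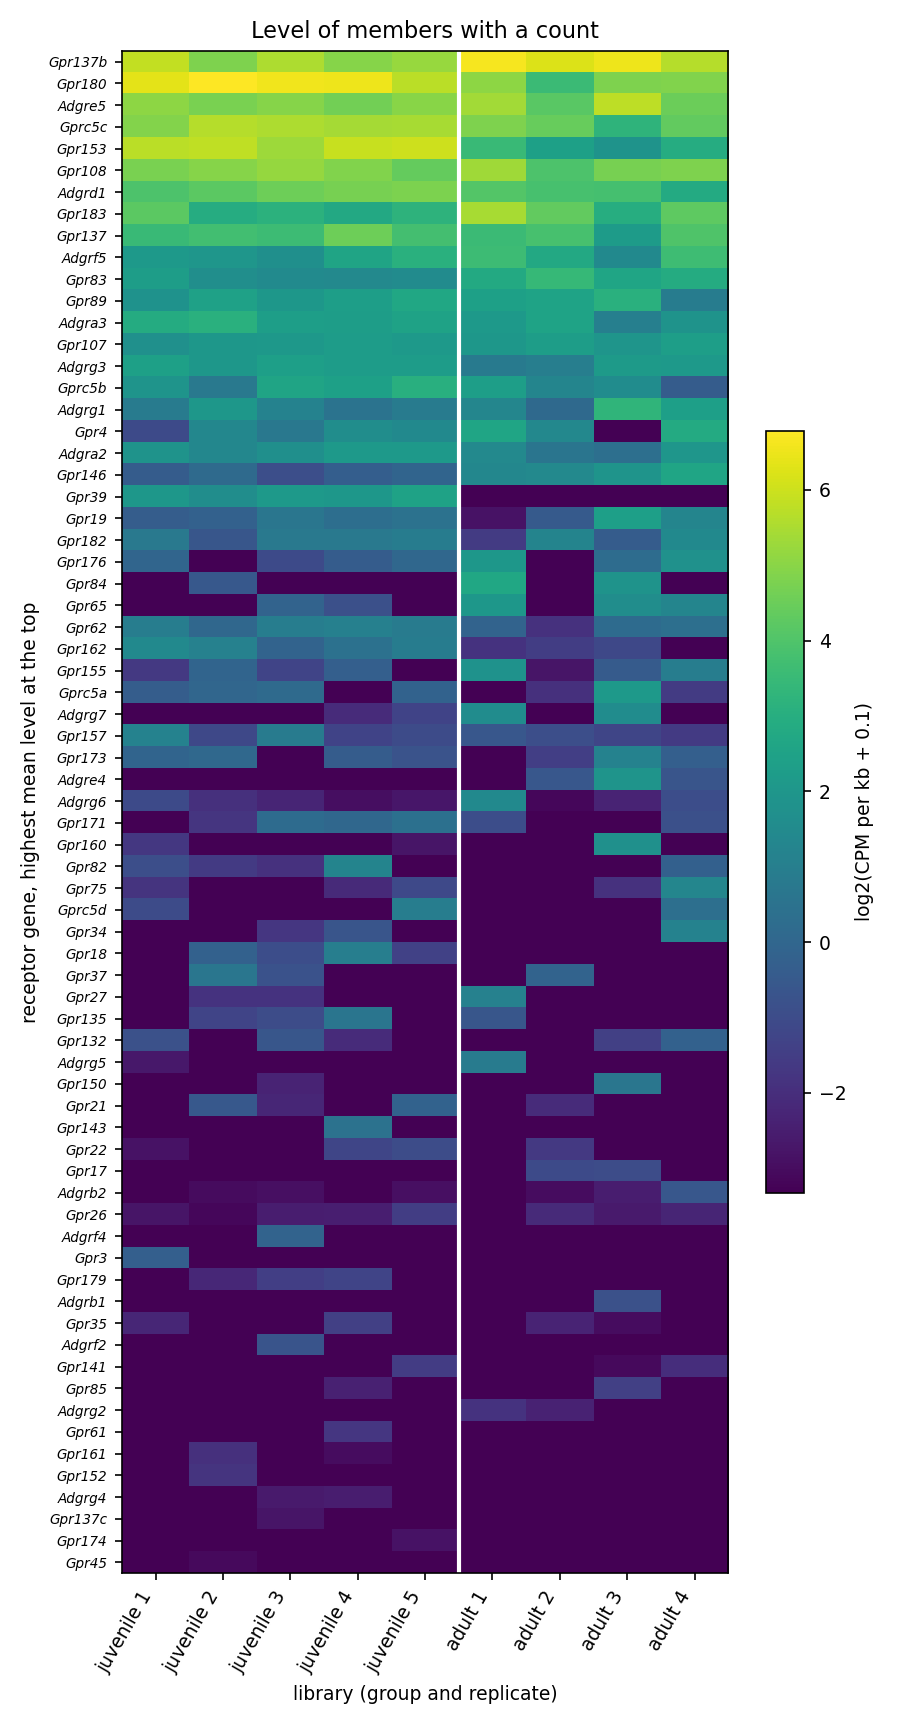
Level of 70 of the 72 members with a count (rows, highest mean level at the top) in the 9 libraries (columns), as colour on the scale log2(CPM per kb of merged exons + 0.1). Gpr137b, Gpr180, Adgre5, Gprc5c and Gpr153 lead, Gpr39 is dark in the 4 adult libraries, and most rows in the lower part are bright in 1 library only or in none.

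By level per length of merged exons, Gpr180 stood first in the juvenile OF at 85.8 ± 20.96 CPM per kb (SD, n = 5) and Gpr137b first in the adult OF at 78.8 ± 21.3 CPM per kb (SD, n = 4). Gpr153 was second in the juvenile order at 54.8 ± 9.78 CPM per kb. It was followed by Gprc5c at 42.4 ± 7.72 and Gpr137b at 39.7 ± 11.6 CPM per kb. On this length the mean of Gpr153 was more than 1 SD above these means. The ranges over juvenile libraries overlapped, at 39.4 to 64.7 for Gpr153, 29.7 to 50.4 for Gprc5c and 28.4 to 56.7 CPM per kb for Gpr137b. The order of Gpr153 and Gprc5c depends on the length used. Gprc5c has 5245 bases of merged exons but a longest transcript of 3667, against 3909 and 3838 for Gpr153. Its juvenile mean was 223 CPM, against 214 CPM for Gpr153. By longest transcript, Gprc5c would therefore stand above Gpr153. In the adult order Gpr137b was followed by Adgre5 at 34.2 ± 16.8, Gpr108 at 27.5 ± 10.2 and Gpr180 at 25.6 ± 9.57 CPM per kb, which also overlap. Gpr153 was at place 11 there with 6.94 ± 3.44 CPM per kb. Taken by library, Gpr180 had the highest level in juvenile libraries 1 to 4, Gpr153 in juvenile library 5 and Gpr137b in each of the 4 adult libraries. Adgre5 codes for CD97, an adhesion receptor known from leukocytes that binds CD55, and Gpr108 for a Golgi protein.

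Between the ages, 6 of the 31 tested members were called at an adjusted p under 0.05 (edgeR's quasi-likelihood test, Benjamini-Hochberg over all genes), beside 3.88% of the 13418 genes tested. Of the 6, Gpr153, Gpr39, Gpr180 and Gprc5c were higher in juvenile mice (1.99% of all genes tested) and Gpr146 and Gpr137b in adult mice (1.89% of all genes tested). Nothing is read from these counts for 3 genes. Gpr153 led to the choice of the family, and Gpr39 and Gpr162 passed the filter on low counts through juvenile libraries alone, so that both had to differ. Without these 3, 4 of 28 tested members were called. The ages did not overlap in 7 members, beside 9.15% of all genes tested. The 7 hold Gpr153, Gpr39 and Gpr162 again, so they are not read against that share. Without these 3, Gpr180, Gprc5c, Gpr146 and Gpr83 remain, of 28 tested members. The juvenile libraries were all above the adult ones for Gpr153, Gpr39, Gpr180, Gprc5c and Gpr162, and all below the adult ones for Gpr146 and Gpr83. Gpr137b, though called, overlapped between the ages. Fitted values were higher in juvenile mice for 14 members and higher in adult mice for 17, with a median log2 difference of -0.12 against -0.01 over all genes tested. The 4 called members other than Gpr153 and Gpr39 were Gpr180, Gprc5c, Gpr146 and Gpr137b. Without juvenile libraries 4 and 5, both with Ddx3y counts, Gpr180 was the only one of these 4 that was called. Leaving out 1 library at a time gave 3 to 7 calls over all tested members, and without juvenile library 3, 4 or 5 Gpr180 was again the only one of the 4.

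**Figure D2:**
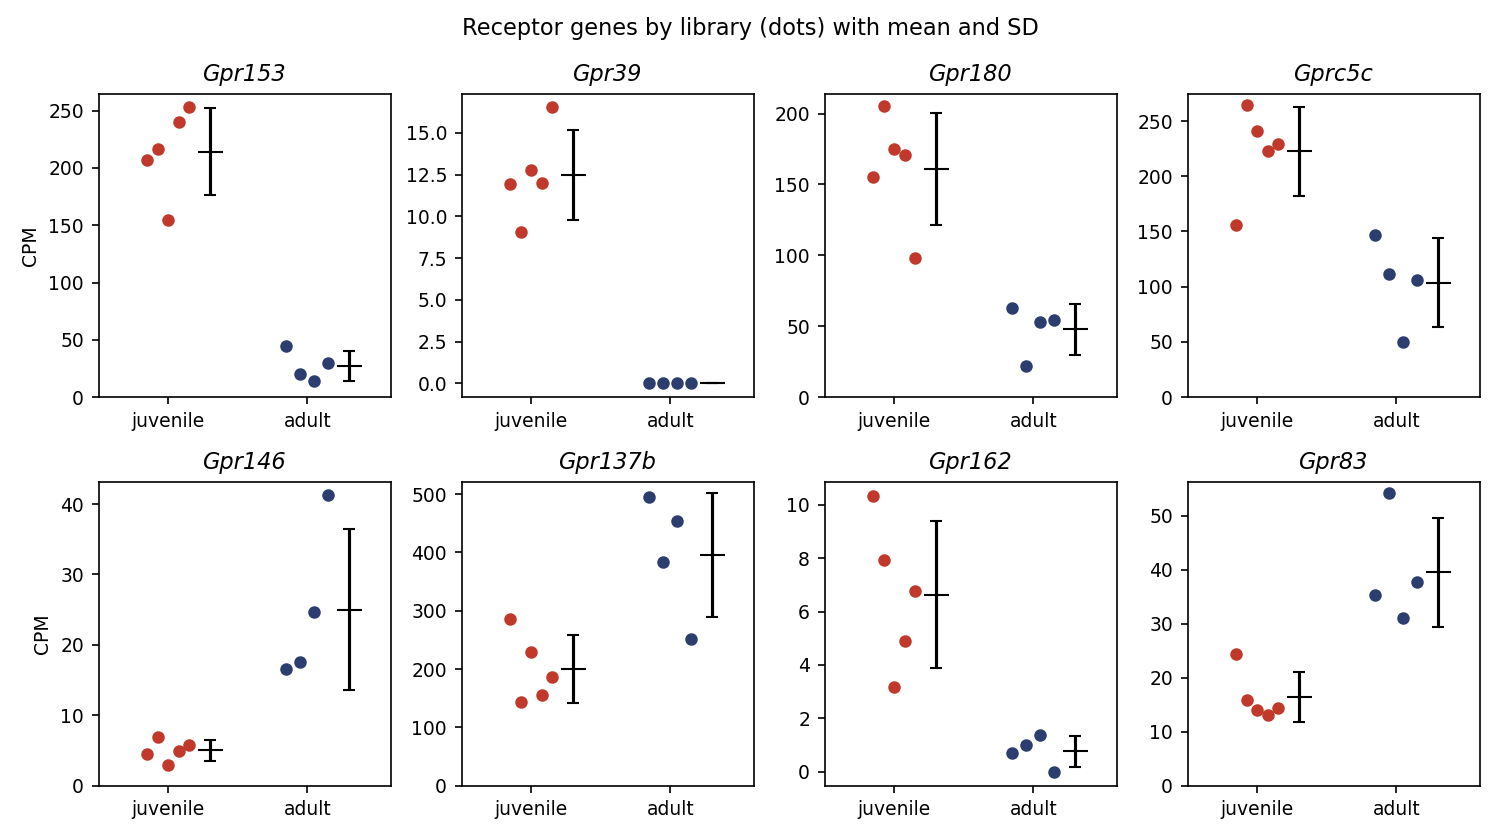
CPM of 8 members in each library (dots, 5 juvenile and 4 adult) with the mean and SD beside them, each panel on its own axis. The adult dots of Gpr39 are all at 0, those of Gpr153 lie between 13.7 and 44.7 CPM below all juvenile dots, and the highest juvenile dot of Gpr137b lies above the lowest adult dot.

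Gpr153 codes for an orphan receptor of the rhodopsin-like class and lies at chr4:152274232-152285337 (+, GRCm38) with 5 coding exons. It had 207, 217, 154, 240.1 and 253 CPM in juvenile libraries 1 to 5 and 44.7, 20.4, 13.7 and 29.7 CPM in adult libraries 1 to 4. The ages did not overlap, with library 3 the lowest of the juvenile libraries and library 1 the highest of the adult ones, and the counts behind these values ran from 111 to 1504 per library. The fitted log2 difference was 2.98 (SE 0.32). Among the 30 tested members other than Gpr39 it stood second in size, after Gpr162 with 3.09 (SE 1.04), whose standard error was the larger one. Gpr153 took 13.2 ± 2.21% of all member counts in juvenile mice (SD, n = 5) and 1.85 ± 0.685% in adult mice (SD, n = 4). By level per length of merged exons it was at places 1 to 4 among the members in the juvenile libraries. In the adult ones it was between place 9 and place 19.

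Osteoblast markers moved the same way as Gpr153. Of the 12, 7 were called, and 6 of these, among them Sp7, Col1a1, Col1a2, Ibsp and Dmp1, were higher in juvenile mice, while Bglap was higher in adult mice. The log2 CPM of Gpr153 minus the mean log2(CPM + 1) of the osteoblast markers was -3.05 ± 0.31 in juvenile (SD, n = 5) and -5.46 ± 0.79 in adult mice (SD, n = 4), a difference of 2.41. This difference depends on the markers averaged, Bglap among them, and is no correction for the number of osteoblasts. Against the mean of the 10 endothelial markers the same quantity was 1.86 ± 0.40 and -1.09 ± 0.77, a difference of 2.94. The part of osteoblasts in the level of Gpr153 was not tested.

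Gpr162 is the closest relative of Gpr153 among the receptors and also an orphan. It had 10.3, 7.92, 3.19, 4.88 and 6.78 CPM in juvenile libraries and 0.6935, 1.002, 1.36 and 0 CPM in adult libraries. All juvenile values were above all adult values, though the adult counts were 6, 6, 11 and 0. The log2 difference of 3.09 (SE 1.04) is given as a value, since the gene passed the filter through its juvenile counts alone. The level of Gpr153 per length was 31.7 times that of Gpr162 in juvenile and 34.9 times in adult mice. The adult ratio was 54.9 without adult library 3 and ran from 25.3 to 42.1 on leaving out another adult library, so it rests on few counts.

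Gpr39, a receptor for which zinc ions are the proposed agonist, was the member with counts in all libraries of 1 age and none in the other. It had 12.0, 9.08, 12.8, 12.0 and 16.5 CPM in juvenile libraries, from 60 to 78 counts each, and 0 counts in the 4 adult libraries. The juvenile mean of 12.5 ± 2.67 CPM (SD, n = 5) was at least 24.9-fold higher than the adult level, taking the highest floor of an adult library (3 counts, 0.501 CPM). The gene was tested only because of its juvenile counts and had to differ, so no p is given. The gene, at chr1:125676995-125873862 (+), shares 1202 of its 3015 exonic bases with Lypd1 on the opposite strand. The libraries do not mark strand, so reads there cannot be told apart. Lypd1 had 9.97, 7.78, 15.5, 17.7 and 19.7 CPM in juvenile libraries against 2.08, 2.51, 0.371 and 3.51 CPM in adult ones, with a log2 difference of 2.73 (SE 0.74) and an adjusted p of 0.0613. Counts of Lypd1 were present in every adult library, where Gpr39 had none.

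Gpr180 codes for a membrane protein with a part in TGF-beta signalling in fat tissue, and lies at chr14:118137158-118163261 (+). It had 155, 205, 175, 171 and 98.3 CPM in juvenile libraries and 62.8, 21.9, 53.3 and 54.1 CPM in adult libraries. Juvenile library 5 was the lowest of its age and still above all adult libraries. The log2 difference was 1.74 (SE 0.31, adjusted p = 0.00932, edgeR). It passed the threshold in all 18 alternatives, with an adjusted p of at most 0.0484.

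Gprc5c belongs to the class C receptors that retinoic acid induces and has no agreed ligand. It had 156, 264, 241, 223 and 229 CPM in juvenile libraries and 147, 112, 49.9 and 106 CPM in adult libraries. The lowest juvenile and the highest adult library were close, at 156 and 147 CPM, while the means were 223 ± 40.5 (SD, n = 5) and 104 ± 40.2 CPM (SD, n = 4). The log2 difference was 1.10 (SE 0.27, adjusted p = 0.043, edgeR). The call was lost on leaving out any 1 of juvenile libraries 2 to 5 or adult libraries 2 to 4, at adjusted p values from 0.0608 to 0.0982, and without juvenile libraries 4 and 5 it was 0.212 at a log2 difference of 1.09. Gprc5b, the other tested gene of this class, was not called, and Gprc6a had no count.

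Gpr146 is a receptor known for its part in cholesterol metabolism of the liver and has a single coding exon. It had 4.53, 6.91, 2.98, 4.88 and 5.72 CPM in juvenile libraries and 16.6, 17.5, 24.6 and 41.2 CPM in adult libraries. Every adult library was above every juvenile one, and adult library 4 was the highest. The log2 difference was -2.31 (SE 0.50, adjusted p = 0.0217, edgeR), and it was not called without juvenile library 3, 4 or 5 or adult library 4, at adjusted p values from 0.0563 to 0.0761, nor without juvenile libraries 4 and 5 together, at 0.148 and a log2 difference of -2.37. Neutrophil markers (7 of 7 tested called higher in adult mice by edgeR, 1 by limma voom) and erythroid markers (6 of 7 by edgeR, 5 by limma voom) moved with it. Neutrophil markers summed to 91.4 CPM in adult library 2 and to 3521 to 4402 CPM in the other 3 adult libraries, while Gpr146 was at 17.5 CPM in adult library 2 and at 16.6 CPM in adult library 1. Erythroid markers summed to 6054, 3379, 8621 and 30640 CPM in adult libraries 1 to 4, and library 4 was the highest for both these markers and Gpr146. This was not particular to erythroid markers. Megakaryocyte, adipogenic marrow stroma and pericyte markers were also highest in adult library 4, at 4211, 1143 and 635.6 CPM. The part of these cells in the level of Gpr146 was not tested.

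Gpr137b codes for a lysosomal membrane protein known from osteoclasts and macrophages. It had 285, 143, 229, 156 and 186 CPM in juvenile libraries and 494.5, 384, 454 and 250.8 CPM in adult libraries. Juvenile library 1 was above adult library 4, and the other 3 adult libraries were above all juvenile ones. The log2 difference was -0.99 (SE 0.24, adjusted p = 0.0406, edgeR). It was not called without any 1 of juvenile libraries 2 to 5 or adult libraries 1 to 3, at adjusted p values from 0.0535 to 0.111, and without juvenile libraries 4 and 5 it was 0.269 at a log2 difference of -0.85. Osteoclast markers summed to 12950 to 21210 CPM in juvenile and 16600 to 25620 CPM in adult libraries, with 2 of 8 (Acp5 and Atp6v0d2) called, both higher in adult mice. Fitted values of the 8 markers were higher in juvenile mice for 3 and higher in adult mice for 5. Adult library 4 had the lowest adult value of both Gpr137b and the osteoclast sum. Juvenile library 2 had the lowest Gpr137b of all libraries, at 143 CPM, and the highest juvenile osteoclast sum, at 21210 CPM. The macrophage markers, summed, were at 480 to 811 CPM in juvenile and 1011 to 1666 CPM in adult libraries, and their part and that of osteoclasts was not tested.

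**Figure D3:**
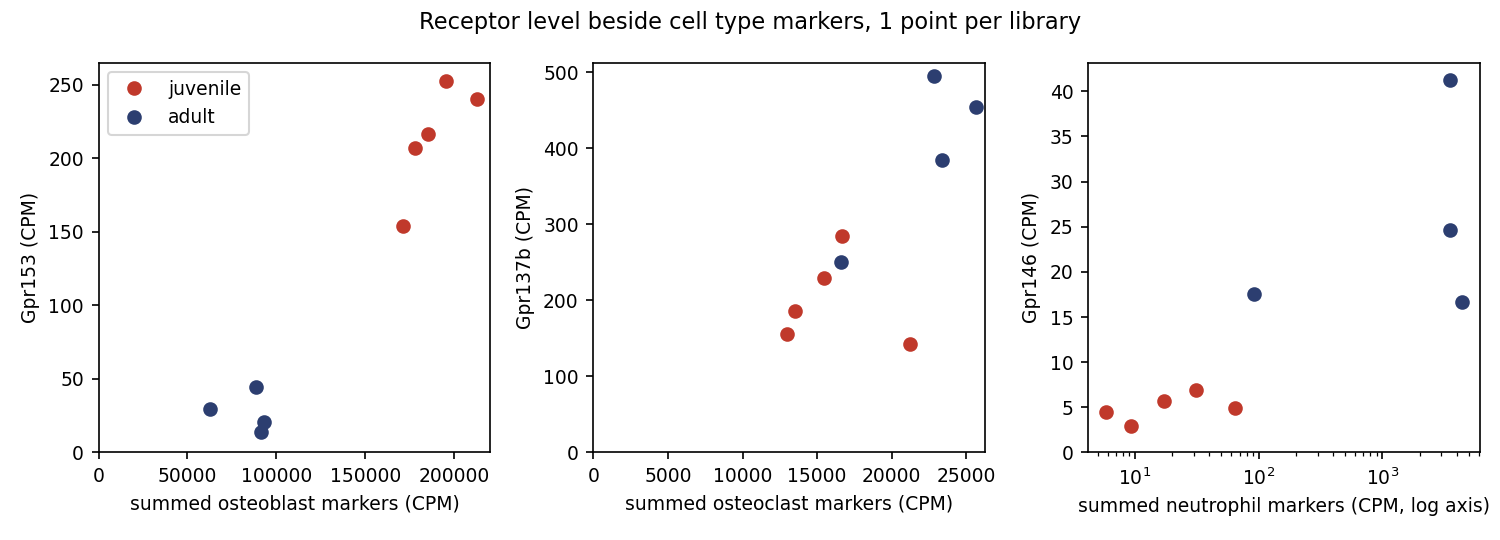
CPM of Gpr153, Gpr137b and Gpr146 (vertical axes) against the summed CPM of osteoblast, osteoclast and neutrophil markers (horizontal axes, the last on a log scale), 1 point per library in the colour of its age. For Gpr153 the ages form 2 separate clouds on both axes, for Gpr137b adult library 4 lies among the juvenile points, and for Gpr146 adult library 2 has 91.4 CPM of neutrophil markers and 17.5 CPM of the receptor.

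Next in order after the called members were Gpr83, just outside the threshold, and Adgrd1, further from it. Their adjusted p values (edgeR) were 0.0547 and 0.117, against 0.0406 and 0.043 for Gpr137b and Gprc5c just inside. Gpr83, a neuropeptide receptor best known from the brain and from regulatory T cells, had 24.5, 15.85, 14.05, 13.1 and 14.4 CPM in juvenile libraries and 35.25, 54.1, 31.05 and 37.7 CPM in adult libraries. The ages did not overlap, and the log2 difference was -1.27 (SE 0.34). Gpr83 was called in 4 of 18 alternatives, among them DESeq2 (adjusted p = 0.00153) and limma voom (adjusted p = 0.0417). Without juvenile library 1, its highest juvenile value, the adjusted p was 0.0465 (edgeR). Over the other alternatives it ran from 0.00153 to 0.285. Adgrd1, an adhesion receptor that raises cAMP, had 129.6, 156, 194, 213 and 226 CPM in juvenile libraries and 138, 117, 116 and 58.4 CPM in adult libraries. Only adult library 1 was above the lowest juvenile library, and the log2 difference was 0.78 (SE 0.26).

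**Figure D4:**
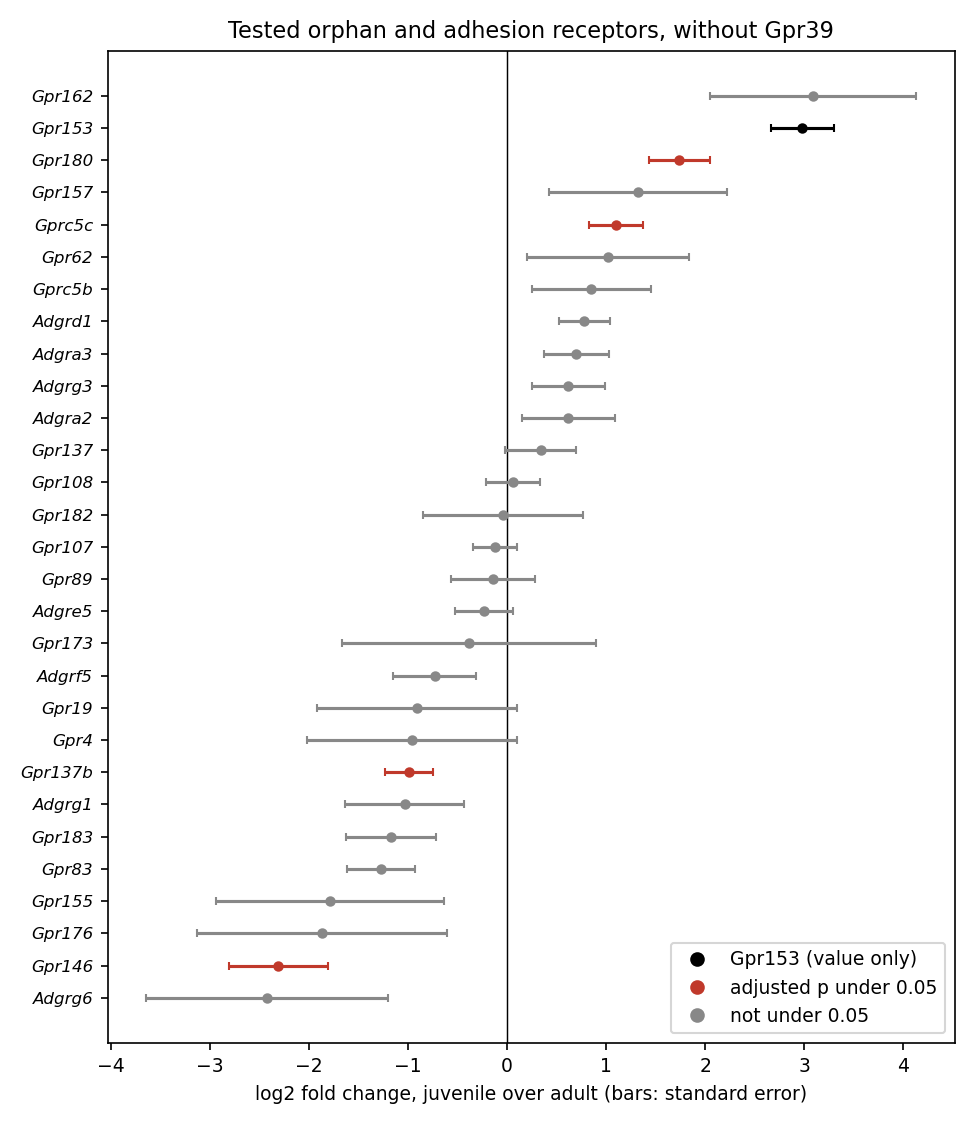
Fitted log2 difference of juvenile over adult mice with its standard error for 29 of the 30 tested members other than Gpr39, which has no adult count. Black is Gpr153, given as a value only, red marks the 4 other members with an adjusted p under 0.05 (Gpr180, Gprc5c, Gpr137b and Gpr146), and members with low counts, such as Gpr173 and Adgrg6, have wide bars.

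None of the 8 adhesion receptors tested was called by edgeR, beside 3.88% of all genes tested, and 1 of them, Adgrd1, had an unadjusted p under 0.05, beside 17.3% of all genes tested. DESeq2, which fitted 17 adhesion receptors, called 1, Adgre4, and limma voom called 0. Adgre4 had no juvenile count, and adult library 3 held 102 of its 129 counts, so nothing is read from this call. Adgra3, an adhesion receptor of the Wnt field, had 39.2 to 68.4 CPM in juvenile and 16.0 to 45.8 CPM in adult libraries, with a log2 difference of 0.70 (SE 0.33, adjusted p = 0.298). Adgrg1, which codes for GPR56 and binds collagen III, had 7.32 to 21.5 CPM in juvenile and 5.34 to 51.6 CPM in adult libraries (log2 difference -1.03, SE 0.60, adjusted p = 0.427), and without adult library 3 the log2 difference was -0.37. Adgrg6, known from myelination and from the spine, had 4.71, 2.02, 1.28, 0.375 and 0.636 CPM in juvenile libraries and 32.6, 0.167, 1.24 and 5.14 CPM in adult libraries. Adult library 1 held 282 of its counts, and the other 3 adult libraries were within or near the juvenile range. The log2 difference of -2.42 (SE 1.22) was -0.29 without it. Adgrg1 and Adgrg3 lie next to each other on chromosome 8 with 1117 and 1532 counts over all libraries, while their neighbour Adgrg5 had 48. Adgrf5 and Adgrf1 are also neighbours, on chromosome 17, with 3615 and 0 counts.

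The 4 members known from vessels, Gpr4, Gpr182, Adgra2 and Adgrf5, were all tested and none was called by edgeR, DESeq2 or limma voom, nor had an unadjusted p under 0.05. With 3.88% of all genes tested called, 4 genes are too few to differ from that share. Adgrf5 was the most abundant of them, with 28.3 to 76.1 CPM in juvenile and 24.2 to 112 CPM in adult libraries (log2 difference -0.73, SE 0.42, adjusted p = 0.408). Adgra2, the partner of Reck in Wnt7 signalling of brain vessels, had 14.1 to 24.97 and 6.81 to 22.55 CPM (log2 difference 0.62, SE 0.47, adjusted p = 0.572), and the difference was 0.39 without adult library 3 and 0.99 without adult library 4. Gpr182, a chemokine scavenger of sinusoidal endothelium, had 2.16 to 6.995 CPM in juvenile and 0.925 to 10.65 CPM in adult libraries, and the sign of its difference (log2 -0.04, SE 0.81) turned with limma voom and on leaving out single libraries. Gpr4, a proton sensor of endothelium, had 1.09 to 8.63 CPM in juvenile libraries and 17.1, 7.35, 0 and 20.4 CPM in adult libraries, with a log2 difference of -0.96 (SE 1.06) that was -0.52 without adult library 4. Adult libraries were spread on both sides of the juvenile ones for all 4 genes except Adgra2, whose adult range reached lower and ended below the juvenile maximum.

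Of 15 members known from leukocytes, 3 were tested by edgeR and 0 were called, beside 3.88% of all genes tested. Of the 3, 1 had an unadjusted p under 0.05, beside 17.3% of all genes tested. Gpr183 had 53.8, 21.6, 25.3, 19.3 and 26.5 CPM in juvenile and 126, 58.5, 22.4 and 56.0 CPM in adult libraries (log2 difference -1.17, SE 0.45, adjusted p = 0.183), so adult library 3 lay among the juvenile values, and without adult library 1 the log2 difference was -0.65. Adgre5 (log2 difference -0.23, SE 0.29), which shares 895 of 3757 exonic bases with Ddx39 on the opposite strand, and Adgrg3, known from neutrophils (0.62, SE 0.37, and 0.40 without adult library 1), overlapped between the ages. The 12 untested leukocyte members together summed to 1.99 to 8.64 CPM in juvenile libraries, with a median of 4.88, and to 2.51 to 26.0 CPM in adult libraries, with a median of 20.2. Adgre4 had 0 counts in all juvenile libraries and 0, 12, 102 and 15 counts in the adult ones, and DESeq2 called it. Gpr18, the neighbour of Gpr183 on chromosome 14, had 28 counts, all in juvenile mice.

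Of the 9 members that code for Golgi, lysosomal or other membrane proteins, 7 were tested and 2 were called, Gpr180 and Gpr137b, beside 3.88% of all genes tested. The other 5 were not called. Gpr155, a lysosomal cholesterol sensor, had 0 to 5.76 CPM in juvenile and 0.334 to 22.8 CPM in adult libraries (log2 difference -1.79, SE 1.15, adjusted p = 0.488). Gpr107, a Golgi protein, had 51.3 ± 6.75 CPM in juvenile (SD, n = 5) and 55.9 ± 7.79 CPM in adult mice (SD, n = 4), a log2 difference of -0.12 (SE 0.22). Gpr108, its relative, had 81.8 ± 16.1 and 78.6 ± 29.2 CPM (0.06, SE 0.27). Gpr137, the relative of Gpr137b, had 49.5 ± 16.3 and 39.0 ± 16.7 CPM, and its log2 difference of 0.34 (SE 0.36) was smaller than its error. It shares 524 of 3396 exonic bases with Bad on the opposite strand. Gpr89, a Golgi anion channel, had 25.8 ± 6.19 and 28.4 ± 14.7 CPM and shares 1333 of 5365 exonic bases with Pdzk1 in the same way.

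Genes that act with the receptors were read from lists of partners and of signal transduction. Of 26 ligands, matrix partners and ligand-making enzymes, 17 were tested and 0 were called by edgeR, beside 3.88% of all genes tested, with 4 at an unadjusted p under 0.05, beside 17.3% of all genes tested. DESeq2 called 2 of them, Hsd3b7, an enzyme of oxysterol breakdown that clears the ligand of Gpr183 (101 ± 33.5 CPM in juvenile and 169 ± 20.1 in adult mice), and Psap, the precursor of saposins (629 ± 73.5 and 856 ± 79.0 CPM), both higher in adult mice, and limma voom called 0. Of 25 G protein subunits, receptor kinases and arrestins, 22 were tested and 1 was called, which is 4.55% beside 3.88% of all genes tested. This was Gnai1, an inhibitory G protein alpha subunit that lowers cAMP, with 135, 90.3, 116, 168 and 104 CPM in juvenile libraries and 54.8, 25.6, 56.1 and 35.0 CPM in adult libraries. Its log2 difference was 1.51 (SE 0.28, adjusted p = 0.0121, edgeR), and it was not called without juvenile libraries 4 and 5. Of 9 adhesion receptors outside the rule, 5 were tested and edgeR called 0, beside 3.88% of all genes tested. Of these, 1 had an unadjusted p under 0.05, beside 17.3% of all genes tested, and DESeq2 called Adgrl3. The list is too short to differ from these shares.

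Most members with few counts were seen in few libraries. In 28 of the 41 members counted but not tested, 1 library held more than 50% of all counts, as against 1 of the 31 tested members. Gpr160 had 111 counts in adult library 3, none in the other adult libraries and 6 in juvenile ones. Adgrg7 had 67 and 64 counts in adult libraries 1 and 3 and none in the other 2. At 3 counts or more, 11 members were found in juvenile libraries alone, of which only Gpr39 reached all 5, and Gpr179 and Gpr18 reached 3, while 8 were found in adult libraries alone, led by Adgre4 in 3. This balance moved with the floor, with 14 against 4 at 1 count and 8 against 14 at 10 counts.

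The structure of the genes is given beside their counts. All 43 members with a single coding exon are numbered Gpr genes. They made up 7 of the 31 tested members and 14 of the 26 members with no count in any library. The adhesion receptors had a median of 19 coding exons. Of the members shown by library above, Gpr146 has 1 coding exon, Gpr39 has 2, Gpr162, Gprc5c and Gpr83 have 4, Gpr153 has 5, Gpr137b has 7 and Gpr180 has 9. These counts come from the annotation and were not tested against the levels.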

How the data were processed

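RNA from microdissected capillaries with surrounding cells was amplified with SMART-Seq v4, made into libraries with Nextera XT, which does not mark strand, and sequenced. The authors mapped reads to mm10 (GRCm38) with TopHat2 and Bowtie2 and deposited whole-number counts per gene, 1 table per library, without normalization. The submitters' processing notes name featureCounts, and its settings and annotation release are not given in the sources used here. The GENCODE annotation of GRCm38 gave symbols, exons and positions for 37693 of 39179 identifiers, and RefSeq gave the promoters.

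The ages were tested against each other in edgeR 4.0.16 with R 4.3.3 (filterByExpr with a minimum count of 10, TMM, quasi-likelihood test, no covariate). P-values were adjusted over all 13418 tested genes with a threshold of 0.05. They set the difference between the ages against the spread between samples of the same age. Fold changes are log2 of juvenile over adult. Alternatives were DESeq2 1.42.0, limma 3.58.1 voom, other scalings and filters, a replicate block and libraries left out. The fits were tested on simulated data. No 2 libraries were copies in the 36 pairs compared.

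Members and lists were chosen with earlier results of these data known. Named members were Gpr153, those called, the 12 with the highest level per length, up to 10 uncalled members with the smallest unadjusted p, and tested members of the leukocyte, vessel, proton sensor and Gpr153 pair lists. Genes of the partner and signalling lists were named where called. Other genes were named after their values were seen. Some results that the rule would name are not reported here.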

Additional observations from a re-analysis of the deposited data

Results flagged for a closer look

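In 46 groups of 4 or 5 libraries, 1 library stood apart from the others of its age in 5. A rate of 1 in 20 groups would give about 2.3. The groups share libraries and some hold few or no counts, so no excess over chance is read from this. Adgrg6 in adult library 1 was at 32.6 CPM against 0.167 to 5.14 CPM in the other adult libraries. Gpr137 in juvenile library 4 was at 78.3 CPM against 38.6 to 45.4 CPM. Gpr182 in juvenile library 2 was low, at 2.16 CPM against 6.35 to 6.995 CPM. In juvenile library 1, Gpr183 was at 53.8 CPM against 19.3 to 26.5 CPM and Gpr83 at 24.5 CPM against 13.1 to 15.85 CPM, both of them on the side of the adult values.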

How the results depend on the processing

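The number of members called was 6 in the reported comparison, 2 with the replicate number as a block, 2 without juvenile replicates 4 and 5, and 3 to 7 on leaving out 1 library. With DESeq2 it was 9 of 72 members fitted, and with limma voom 7 of 31, the same number as fitted by edgeR. The share of all genes called is given here for edgeR only, so these counts are not set against one. These counts hold Gpr153, chosen for its difference, and Gpr39, which had to differ, and support nothing for either. The count of DESeq2 also holds Gpr162, which passed the edgeR filter through juvenile libraries alone. It holds Adgre4 too, with no juvenile count and 102 of its 129 counts in adult library 3. Nothing is read from the calls of these genes. The log2 difference of Gpr153, as a description, ran from 2.74 to 3.32 on leaving out 1 library. In the list of G proteins, kinases and arrestins 1 gene was called, 0 without juvenile replicates 4 and 5 and 1 on leaving out any 1 library. In the list of partners and ligands 0 genes were called, 2 with DESeq2 and 0 to 1 on leaving out 1 library (1 without juvenile library 1). Members in every library were 22, with 22 to 23 on leaving out 1 library. The sign turned for Gpr182 (0.21 with limma voom, 0.29 with the block, -0.41 to 0.43 on leaving out 1 library), Gpr4 (0.64 with limma voom), Gpr89 (0.13 with limma voom, -0.45 to 0.16 on leaving out 1 library), Adgre5 (-0.45 to 0.07) and Gpr108 (-0.16 to 0.28). The cause was not tested. Of all values recomputed, 177 kept their direction and their side of the threshold, 8 lost and 4 gained the call and 4 turned, and on leaving out 1 library these were 170, 18, 1 and 7. The labels do not say whether libraries with the same number share anything else, and their deviations correlated at -0.032 to 0.03. With the block Gprc5c, Gpr146 and Gpr137b were not called, and Gpr180 was. Of the juvenile libraries with a numbered partner, 3 of 4 correlated best with their own number, and of the adult ones 2 of 4. A pairing by number can therefore be neither assumed nor excluded. At 3 counts, levels under 0.347 to 0.638 CPM could not be seen, and 41 members could not be tested.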
